A study of Homo sapiens with 12 samples.

Results

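Heat shock proteins are chaperones that bind unfolded proteins and help them fold, keep them soluble or pass them on for degradation. In the cytosol the HSP70 proteins do this in cycles of ATP use, J-domain proteins bring them their clients, HSP110 proteins release the spent nucleotide, HSP90 takes over late folding clients such as kinases and receptors, and small heat shock proteins hold clients without ATP. Heat shock factor 1 (HSF1) binds repeats of the letters GAA in the promoters of many of these genes and raises their transcription when proteins unfold, and several of the chaperones are known to restrain apoptosis. The genes described here are 10 such genes of the cytosol, the HSP70 genes HSPA2, HSPA1A, HSPA1B, HSPA6 and HSPA8, the J-domain gene DNAJB1, the HSP110 gene HSPH1, the small heat shock gene HSPB1, the HSP90 gene HSP90AA1, and HSF1, which encodes a transcription factor and no chaperone. A gene counted as measured where the array had a feature that names it and no other gene, and the feature with the highest mean over the 12 arrays was taken. By this rule 8 of the 10 were measured, among 18417 genes in all. HSPA1A and HSPA1B, the near-identical heat-inducible HSP70 genes, were not measured, since each of the 5 features that name them names both. The genes were chosen by their function around HSPA2, with earlier results of these data known. HSPA2 itself was selected on its measured values, since of all 18417 genes its TRAIL effect in TTR minus parental cells was the most negative. Its values are therefore given as a description without a test.

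The RNA was from MDA-MB-231, a widely used human breast cancer line of the triple-negative class with mutant p53. There were 4 groups of 3 arrays each: cells treated to resistance (TTR) and given TRAIL, TTR cells without it, parental cells given TRAIL, and parental cells without it. TRAIL, a ligand of the TNF family that triggers apoptosis through death receptors, was present for 2 hours at 100 ng per ml. The labels do not say how the TTR cells were selected, whether they are 1 clone, or whether replicates were separate cultures, so p-values here rest on the spread of these arrays alone, whose number limits the precision. The array descriptions carry a tag that takes one form in TTR and another in parental cells, and its effect cannot be told apart from that of the line. Another part of the description goes with the replicate number across the 4 groups, unexplained by the labels, so same-numbered arrays may form a batch. With the replicate number as a block 1 member call was gained and none was lost.

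The 4 mesenchymal breast cancer markers VIM, CD44, AXL and MSN lay between 9.28 and 11.9 on the log2 scale on all arrays. They were not constant: with TRAIL 0 of the 4 were called in TTR cells (median 0.04), and 3 fell and 1 rose in parental cells (median −0.65). With TRAIL 3 of the 4 were higher in TTR than in parental cells (median 1.00), and their part in the results below was not tested. The 5 luminal markers lay between 2.21 and 5.04, the 3 measured blood markers between 2.07 and 4.99, and the 4 endothelial and fibroblast markers between 2.12 and 4.98. The array medians over all features were 4.38 to 4.40 in TTR cells with TRAIL, 4.24 to 4.30 in TTR cells without it, 4.58 to 4.61 in parental cells with TRAIL and 4.29 to 4.31 in parental cells without it. The parental TRAIL arrays thus stood apart, with a median 0.29 above the parental untreated arrays, against a shift of 0.11 with TRAIL in TTR cells. The shift was not uniform. In parental cells the lower quartile was 2.98 to 3.05 with TRAIL and 2.84 to 2.89 without it. The upper quartile was lower with TRAIL, 6.545 to 6.593, than without it, 6.649 to 6.691. Changes below are log2 differences of the deposited values, ± gives the fit's standard error (limma), and a gene was called at an adjusted p under 0.05. Values after centring each array on its median are given where the shift matters. Centring moves every gene of an array by the same amount, and the median change over all genes in parental cells then became −0.24. It thus deepens the falls of genes above the upper quartile, such as HSPA8, HSPB1, HSP90AA1 and HSPH1, where the arrays did not shift upward. Centred values are an alternative scale and no correction. In RNA from whole cultures, less RNA per cell and fewer cells with that RNA cannot be told apart.

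HSPA2, an HSP70 gene best known for its high expression in the testis, was high in 1 group. Its level was 5.63, 5.89 and 5.70 on the 3 arrays of TTR cells with TRAIL and 5.08, 4.98 and 5.0 in TTR cells without it. It was 8.88, 9.13 and 9.38 in parental cells with TRAIL, against 4.85, 4.76 and 5.09 in parental cells without it. The TRAIL-treated arrays lay above the untreated ones in both lines with no overlap, and the untreated arrays of the 2 lines overlapped. With TRAIL, HSPA2 was 18.8-fold higher in parental cells (4.23 ± 0.12), the 26th highest change of 18417 genes. In TTR cells it was 1.65-fold higher (0.72 ± 0.12), which is 17.1% of the parental change on the log2 scale. Between the lines it differed by 0.12 ± 0.12 without TRAIL, TTR minus parental, and by −3.39 ± 0.12 with TRAIL, a 10.5-fold lower level in TTR cells. After median centring the changes with TRAIL were 0.62 in TTR cells and 3.94 in parental cells.

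**Figure D1:**
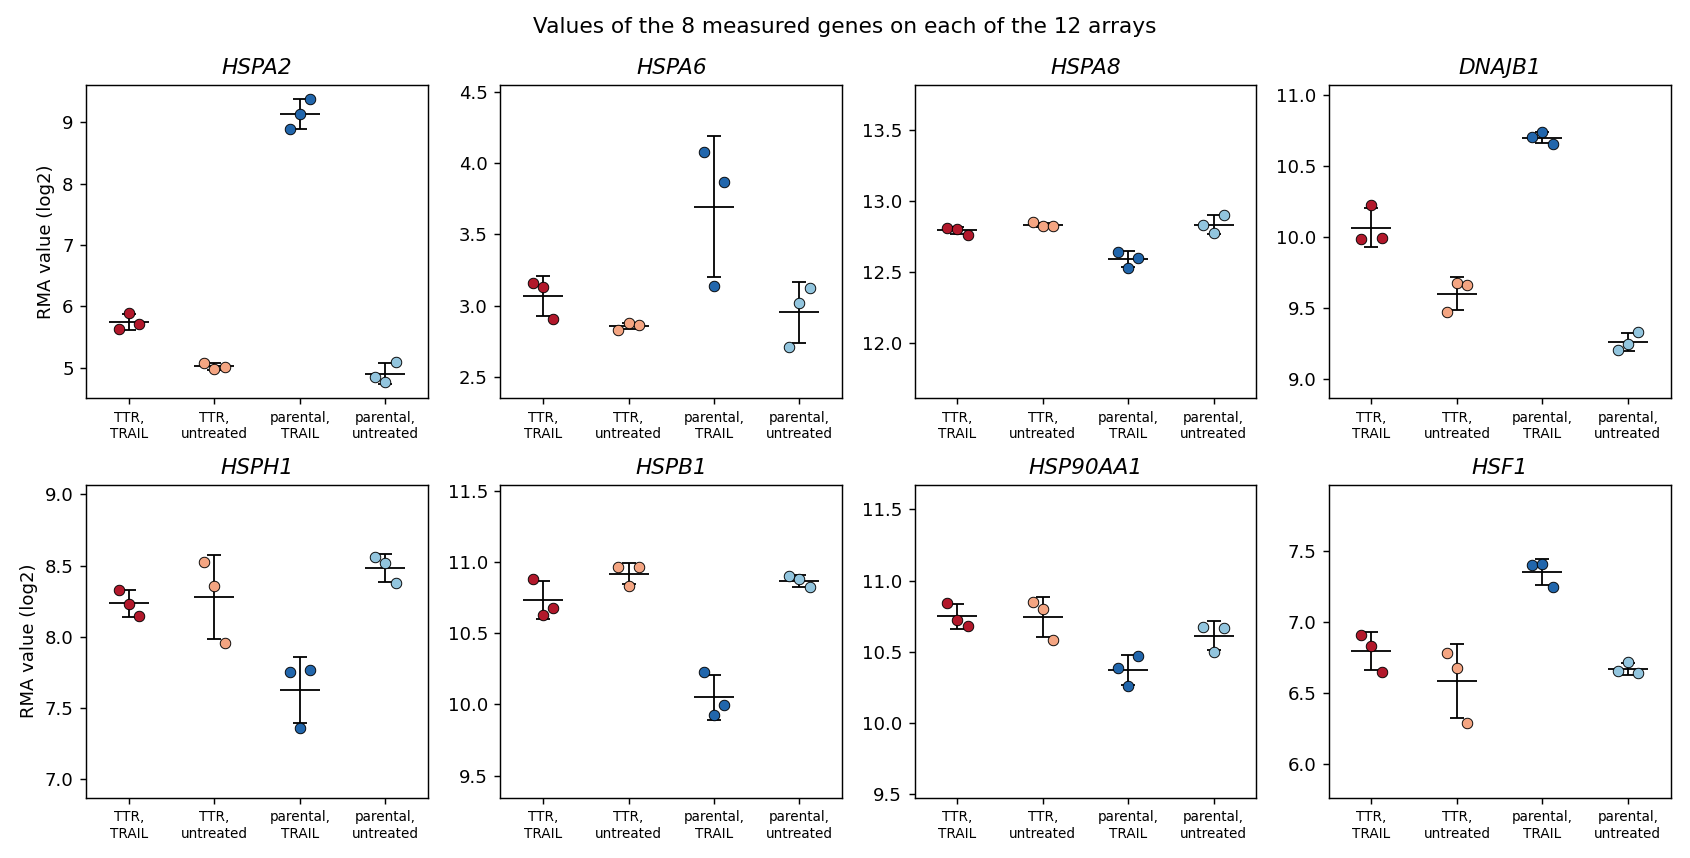
Deposited log2 RMA values of the 8 measured genes on each array, with points for arrays, horizontal lines for group means and bars for the SD (n = 3). Axes differ between panels and span at least 2.2 log2 units; HSPA2 reaches 8.88 to 9.38 in parental cells with TRAIL and stays between 4.76 and 5.89 on the other arrays.

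DNAJB1, the J-domain partner that delivers clients to HSP70 and a classical heat shock gene, rose with TRAIL in both lines. Its level was 9.99, 10.22 and 9.99 in TTR cells with TRAIL, against 9.47, 9.68 and 9.66 in TTR cells without it. It was 10.71, 10.74 and 10.66 in parental cells with TRAIL, against 9.21, 9.25 and 9.34 in parental cells without it. No 2 of these 4 groups overlapped, and their order from high to low was parental with TRAIL, TTR with TRAIL, TTR untreated and parental untreated. The rise was 1.38-fold in TTR cells (0.46 ± 0.10, limma adjusted p = 0.0109) and 2.71-fold in parental cells (1.44 ± 0.10, adjusted p = 2.94e-09). The TTR call was lost without TTR TRAIL array 2 (0.39, adjusted p = 0.083) and otherwise held, with adjusted p over the alternatives of 0.00276 to 0.083. After median centring the rises were 0.36 in TTR cells and 1.15 in parental cells, both still called.

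HSPA6, another HSP70 gene, is known in other settings as strictly heat-inducible. It was at 3.16, 3.13 and 2.91 in TTR cells with TRAIL and at 2.83, 2.88 and 2.86 in TTR cells without it. It was at 4.08, 3.14 and 3.87 in parental cells with TRAIL, against 2.71, 3.02 and 3.13 in parental cells without it. Array 2 of the parental TRAIL group lay 0.01 above the highest parental untreated array, and the other 2 lay well above all arrays. The rise in parental cells was 0.74 ± 0.18 (limma adjusted p = 0.00206), or 0.45 after median centring (adjusted p = 0.0441). In TTR cells the change was 0.21, with a 95% interval of −0.17 to 0.59, and was not called (adjusted p = 0.575). The untreated values lay around the lower quartile of all features of their arrays, which was 2.83 to 2.86 in TTR and 2.84 to 2.89 in parental cells, and no detection call was used.

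HSPA8, the constitutive HSP70 also called HSC70, varied least, spanning 0.37 over the 12 arrays against 4.61 for HSPA2. It was at 12.81, 12.80 and 12.76 in TTR cells with TRAIL and at 12.85, 12.82 and 12.82 in TTR cells without it. It was at 12.64, 12.53 and 12.60 in parental cells with TRAIL, against 12.83, 12.77 and 12.90 in parental cells without it. All 3 parental TRAIL arrays lay below all the others. The fall in parental cells was 1.18-fold (−0.24 ± 0.08, limma adjusted p = 0.0203). That call was lost with only the 2 groups in the fit (adjusted p = 0.0646), without parental untreated array 3 (0.0756) and without parental TRAIL array 2 (0.052), and its adjusted p ranged from 4.47e-05 to 0.0756. The change was −0.54 after median centring, and in TTR cells it was −0.04 (95% interval −0.22 to 0.14, adjusted p = 0.859).

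HSPH1, the HSP110 protein that exchanges the nucleotide of HSP70, and HSPB1, the small heat shock protein HSP27, fell in parental cells. HSPH1 was at 8.33, 8.23 and 8.14 in TTR cells with TRAIL and at 8.53, 8.36 and 7.96 in TTR cells without it. It was at 7.75, 7.36 and 7.77 in parental cells with TRAIL, against 8.56, 8.52 and 8.38 in parental cells without it. The parental TRAIL arrays were below all others, and the 2 TTR groups overlapped. HSPH1 fell 1.81-fold in parental cells (−0.86 ± 0.14, limma adjusted p = 5.92e-05) and stood at −0.04 in TTR cells (95% interval −0.34 to 0.25, adjusted p = 0.909). HSPB1 was at 10.89, 10.63 and 10.68 in TTR cells with TRAIL and at 10.96, 10.83 and 10.96 in TTR cells without it. It was at 10.23, 9.93 and 9.99 in parental cells with TRAIL, against 10.91, 10.88 and 10.82 in parental cells without it. Again the parental TRAIL arrays were the lowest. HSPB1 fell 1.76-fold in parental cells (−0.82 ± 0.10, limma adjusted p = 3.56e-06), and its change in TTR cells was −0.19 (95% interval −0.41 to 0.03, adjusted p = 0.332). After median centring the falls in parental cells were −1.15 for HSPH1 and −1.11 for HSPB1.

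HSP90AA1, the stress-inducible HSP90, was at 10.84, 10.72 and 10.68 in TTR cells with TRAIL and at 10.85, 10.80 and 10.58 in TTR cells without it. It was at 10.38, 10.26 and 10.47 in parental cells with TRAIL, against 10.67, 10.50 and 10.67 in parental cells without it. The parental groups did not overlap, though the gap between them was 0.03. The parental change of −0.24 ± 0.10 was not called (limma adjusted p = 0.0522). It was −0.53 and called after median centring (adjusted p = 3.28e-04) and −0.18 after quantile normalization (adjusted p = 0.145), over a range of 3.28e-04 to 0.16. It was also called with the replicate block (adjusted p = 0.0475), after a filter on low genes (0.0464), and without parental untreated array 2 (0.0371), parental TRAIL array 3 (0.0378) or TTR untreated array 3 (0.0417). In TTR cells the change was 0.00 (95% interval −0.21 to 0.22, adjusted p = 0.989).

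HSF1, the transcription factor, moved the other way from HSPH1 and HSPB1. It was at 6.91, 6.83 and 6.65 in TTR cells with TRAIL and at 6.78, 6.68 and 6.29 in TTR cells without it. It was at 7.40, 7.41 and 7.25 in parental cells with TRAIL, against 6.65, 6.72 and 6.64 in parental cells without it. The parental TRAIL arrays were above all others. HSF1 mRNA rose 1.60-fold in parental cells (0.68 ± 0.12, limma adjusted p = 1.25e-04), or 0.39 after median centring (adjusted p = 0.0117). In TTR cells it changed by 0.21 (95% interval −0.04 to 0.47, adjusted p = 0.345). HSF1 activity is set mainly by changes in the protein, which mRNA arrays do not measure.

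Leaving out HSPA2, 6 of the 7 other measured genes were called for TRAIL in parental cells, 3 higher and 3 lower, where 58.8% of all genes were called, 28.9% higher and 29.9% lower. Of the genes kept after a filter on low genes, 32.4% were higher and 43.7% lower there. HSPA6 was not among the genes kept, and HSP90AA1 was called lower with the filter (limma adjusted p = 0.0464). In TTR cells 1 of the 7 was called, DNAJB1, against 5.82% of all genes, 3.27% called higher and 2.55% lower. The median change of the 7 was 0.00 in TTR cells, against −0.01 over all genes, and −0.24 in parental cells, against 0.05 over all genes. Over the genes kept after that filter the median in parental cells was −0.12. The 3 that rose in parental cells were DNAJB1, HSPA6 and HSF1, and the 3 that fell were HSPA8, HSPH1 and HSPB1.

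**Figure D2:**
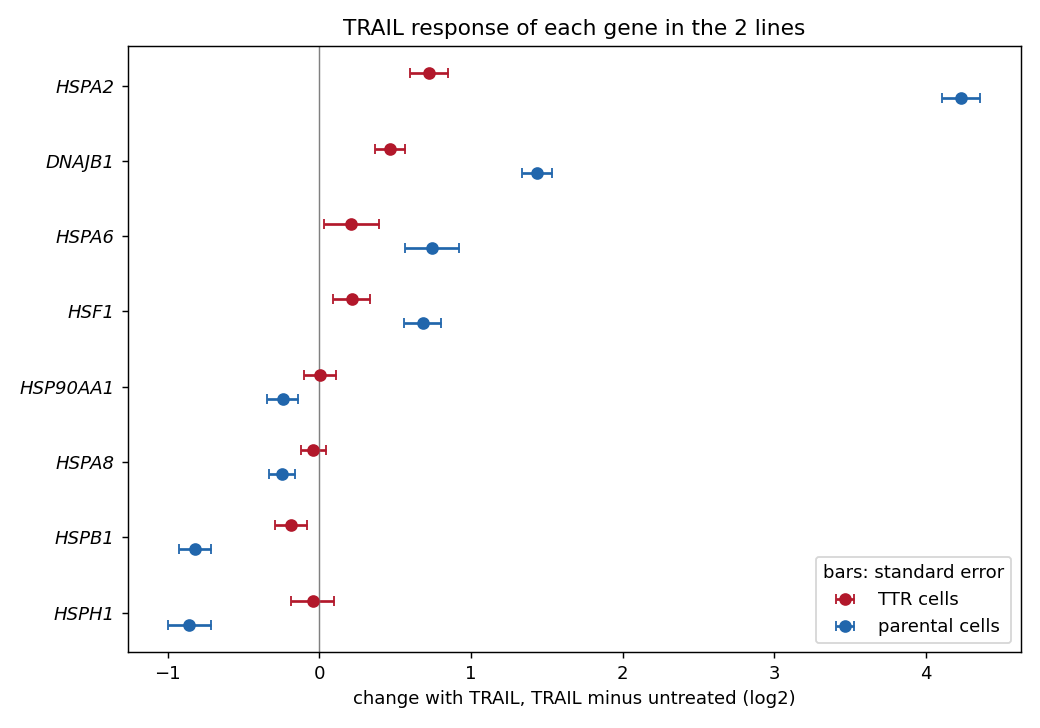
Change with TRAIL (TRAIL minus untreated, log2) of each measured gene in TTR cells and in parental cells, with bars for the standard error of the fit to 12 arrays. HSPA2 and DNAJB1 lie at 0.72 and 0.46 in TTR cells and at 4.23 and 1.44 in parental cells, while HSPB1 and HSPH1 lie at −0.82 and −0.86 in parental cells.

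Whether the TRAIL effect differed between the lines, TTR minus parental, was tested for the 7 genes. It passed for 4 of them, 2 above and 2 below 0, where 37.2% of all genes passed, 22.9% above and 14.3% below. Of the genes kept after a filter on low genes, which left out HSPA6, 35.2% were above 0 and 19% below. DNAJB1 stood at −0.97 ± 0.14 (limma adjusted p = 4.09e-05), with a TTR change that was 32.3% of the parental one. HSPH1 stood at 0.81 ± 0.20 (adjusted p = 0.00401) and HSPB1 at 0.63 ± 0.15 (adjusted p = 0.00269). For all 3 the change was nearer 0 in TTR cells. HSF1 stood at −0.47 ± 0.17 (adjusted p = 0.0405), a call lost after median centring (−0.28, adjusted p = 0.229), over every feature (0.0628) and without any 1 of 9 arrays, with adjusted p up to 0.106. These were parental untreated arrays 1, 2 and 3, parental TRAIL arrays 1 and 2, TTR untreated arrays 1 and 2 and TTR TRAIL arrays 2 and 3, and the range over all alternatives was 0.00311 to 0.229. HSPA6 (−0.53, 95% interval −1.07 to 0.01), HSPA8 (0.21, −0.05 to 0.46) and HSP90AA1 (0.25, −0.06 to 0.55) did not pass. For HSPA6 1 array decided this, since without parental TRAIL array 2 the difference was −0.81 (adjusted p = 0.00202). HSPA8 (0.39, adjusted p = 0.0189) and HSP90AA1 (0.43, adjusted p = 0.0316) passed after median centring, which shifts this difference by 0.18 for every gene. For HSPA2, as a description, it was −3.51 ± 0.18.

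TTR and parental cells were also compared directly, in contrasts that use the same arrays as those above. Without TRAIL 1 of the 7 genes was called, DNAJB1, 1.27-fold higher in TTR cells (0.34 ± 0.10, limma adjusted p = 0.0468), where 7.11% of all genes were called, 3.64% higher and 3.47% lower. This call was lost over every feature (adjusted p = 0.0803), with only the 2 groups in the fit (0.0657) and without any 1 of 8 arrays, with adjusted p up to 0.176. These were parental untreated arrays 1, 2 and 3, parental TRAIL array 1, TTR untreated arrays 2 and 3 and TTR TRAIL arrays 1 and 3. HSPA6, HSPA8, HSPH1, HSPB1, HSP90AA1 and HSF1 lay between −0.20 and 0.13, and their groups overlapped. With TRAIL 6 of the 7 were called, where 54.4% of all genes were called, 28.0% higher and 26.4% lower. With low genes filtered out, HSPA6 among them, these shares were 41.7% higher and 30.2% lower. HSPB1 (0.68 ± 0.10), HSPH1 (0.61 ± 0.14) and HSP90AA1 (0.38 ± 0.10) were higher in TTR cells, and DNAJB1 (−0.63 ± 0.10), HSPA6 (−0.63 ± 0.18) and HSF1 (−0.55 ± 0.12) were lower, with overlapping groups for HSPA6. HSPA8 was at 0.20 (adjusted p = 0.0519). After median centring, and likewise after quantile normalization, 4 were higher and 2 lower, as HSPA8 was then called (adjusted p = 7.79e-04 and 0.0171) and HSPA6 was not (adjusted p = 0.0654 and 0.0619). Of all genes 37.1% were then higher and 13% lower after centring, and 27.8% and 19.4% after quantile normalization.

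The promoters of the members were read for the letters that HSF1 binds, since members with known heat shock promoters moved in opposite directions. RefSeq promoters of build GRCh38.p14, from 250 bases before to 50 bases after the annotated start, were at hand for 7 of the 8 measured genes, 10 promoters in all because DNAJB1 had 3 and HSP90AA1 2. The motifs were GAANNTTC and TTCNNGAA, which pair GAA units of the heat shock element, and TGANTCA, the core of an AP-1 site. Each reads the same on both strands, and GAANNTTC and TTCNNGAA can overlap by 3 letters. Of 35116 promoters of this length, 13.5% held GAANNTTC or TTCNNGAA, 0.49% held both overlapping, and 7.71% held TGANTCA. Of the member promoters 6 of 10, from 5 of 7 genes, held GAANNTTC or TTCNNGAA. The sequences below are those of the 2 highest rises with TRAIL, of HSPA6, which has all 3 motifs, and of HSPA8 and HSPB1, which fell in parental cells. They are written 5′ to 3′ on the strand of the gene with motif matches in capitals, and for DNAJB1 the start with the most matches is shown. They lie at chr14:64540491-64540790 on the plus strand (HSPA2), chr19:14518348-14518647 on the minus strand (DNAJB1), chr1:161524290-161524589 on the plus strand (HSPA6), chr11:123062087-123062386 on the minus strand (HSPA8) and chr7:76302423-76302722 on the plus strand (HSPB1).
HSPA2: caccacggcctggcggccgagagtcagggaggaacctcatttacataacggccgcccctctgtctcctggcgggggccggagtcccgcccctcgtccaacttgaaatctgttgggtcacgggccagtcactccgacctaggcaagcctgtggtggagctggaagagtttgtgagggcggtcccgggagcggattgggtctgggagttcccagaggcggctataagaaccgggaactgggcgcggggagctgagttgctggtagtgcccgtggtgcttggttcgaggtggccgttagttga
DNAJB1: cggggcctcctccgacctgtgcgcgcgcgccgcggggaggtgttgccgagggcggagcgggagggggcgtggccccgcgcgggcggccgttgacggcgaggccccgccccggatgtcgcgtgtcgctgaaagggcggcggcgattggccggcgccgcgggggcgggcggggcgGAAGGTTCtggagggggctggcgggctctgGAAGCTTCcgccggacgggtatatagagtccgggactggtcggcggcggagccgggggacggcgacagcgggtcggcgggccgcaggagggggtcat
HSPA6: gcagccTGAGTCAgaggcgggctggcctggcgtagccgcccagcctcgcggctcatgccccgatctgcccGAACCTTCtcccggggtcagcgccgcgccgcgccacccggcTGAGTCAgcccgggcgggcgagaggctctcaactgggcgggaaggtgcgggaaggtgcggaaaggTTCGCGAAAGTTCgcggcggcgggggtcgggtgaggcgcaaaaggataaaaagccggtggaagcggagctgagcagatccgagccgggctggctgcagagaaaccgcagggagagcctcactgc
HSPA8: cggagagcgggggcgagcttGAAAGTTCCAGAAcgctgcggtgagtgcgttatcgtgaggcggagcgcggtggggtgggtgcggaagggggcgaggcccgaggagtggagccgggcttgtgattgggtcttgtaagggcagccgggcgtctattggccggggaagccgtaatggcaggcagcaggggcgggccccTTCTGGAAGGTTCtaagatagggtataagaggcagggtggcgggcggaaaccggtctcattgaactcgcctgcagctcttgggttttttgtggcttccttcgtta
HSPB1: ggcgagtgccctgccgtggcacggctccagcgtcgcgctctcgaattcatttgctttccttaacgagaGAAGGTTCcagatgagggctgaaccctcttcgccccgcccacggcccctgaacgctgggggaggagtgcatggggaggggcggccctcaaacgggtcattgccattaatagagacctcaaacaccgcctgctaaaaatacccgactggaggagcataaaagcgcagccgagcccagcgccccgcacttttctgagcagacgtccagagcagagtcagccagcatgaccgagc

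HSPA2, with the highest rise, held none of the 3 motifs in this window, and neither did HSPH1. DNAJB1 held GAANNTTC at −77 to −70 and at −47 to −40 relative to the annotated start. HSPA6 held an overlapping pair at −74 to −62, a further GAANNTTC at −180 to −173, and TGANTCA at −244 to −238 and −139 to −133. HSPA8, which fell by 0.24 in parental cells, held 2 overlapping pairs, at −230 to −218 and −55 to −43, and HSPB1, which fell by 0.82, held GAANNTTC at −182 to −175. The second HSP90AA1 promoter, at chr14:102086995-102087294, held an overlapping pair at −88 to −76 and a further TTCNNGAA at −68 to −61. A match is a description of the letters and not a site in use, and both rising and falling genes had matches.

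The genes whose pattern was most like that of HSPA2 were sought over all 12 arrays, by the root mean square difference of log2 values after each gene's own mean was subtracted. The closest were GADD45G (0.15), H4C9 (0.19), SNORD50B (0.21), SNORD61 (0.24) and PPP1R3C (0.24). GADD45G encodes a stress sensor that activates the p38 and JNK pathways, and PPP1R3C a glycogen-targeting subunit of protein phosphatase 1. H4C9 is a histone H4 gene and the SNORD genes are small nucleolar RNAs, all of multigene families whose signals are uncertain. Their changes with TRAIL were 0.84, 0.59, 1.04, 0.72 and 0.87 in TTR cells, in the order given, and 4.34, 3.88, 4.15, 4.03 and 3.70 in parental cells. The genes closest to DNAJB1 were SUGP2 (0.13), KLF5 (0.13) and NABP1 (0.14). SUGP2 is linked to RNA splicing, KLF5 is a zinc finger transcription factor and NABP1 a protein that binds single-stranded DNA. They changed by 0.38, 0.37 and 0.60 in TTR cells and by 1.24, 1.55 and 1.43 in parental cells. Both sets were picked by closeness on these same arrays, so their similar changes follow from the choice and are no separate result.

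**Figure D3:**
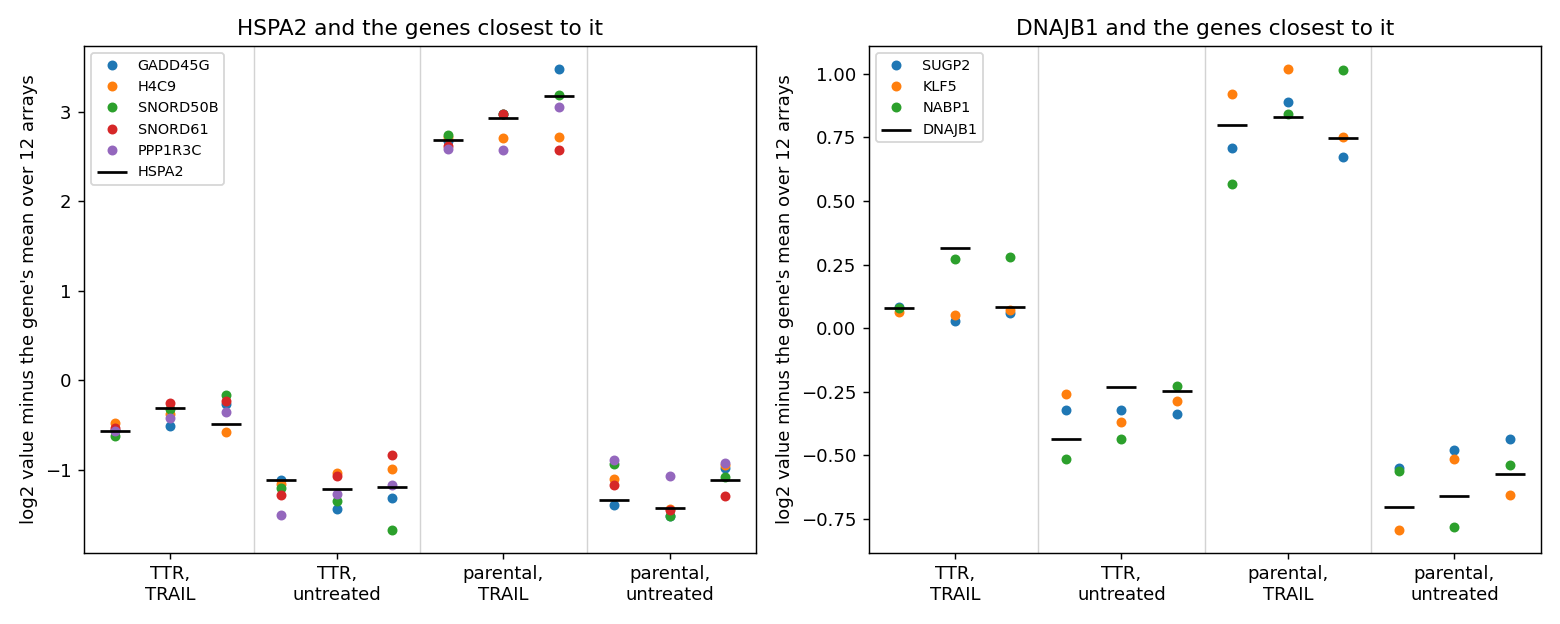
Log2 values on the 12 arrays minus each gene's own mean, for HSPA2 with the 5 genes closest to it and for DNAJB1 with the 3 closest, arrays 1 to 3 from left to right within each group. Points of the close genes lie near the black dashes of HSPA2, since they were picked for it, with a root mean square difference of 0.15 to 0.24.

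The wider chaperone system was described with 8 lists of 70 other genes, 64 of them measured. With TRAIL 0 rose and 3 fell in TTR cells, where 3.27% of all genes were higher and 2.55% lower. In parental cells 15 rose and 31 fell, where 28.9% of all genes were higher and 29.9% lower. Shares of all genes, here and below, include low genes. With low genes filtered out, 13 rose and 31 fell in parental cells. Of the 12278 genes then kept, 32.4% were higher and 43.7% lower, a higher share of falls than without the filter. The filter also removed low list genes, CRYAB and HSPB3 among them, so these counts are out of fewer than 64. Without this filter 3 rose and 37 fell after median centring, with 12.6% of all genes higher and 46.7% lower. After quantile normalization 12 rose and 28 fell, with 19.1% higher and 31.4% lower. The TRAIL effect differed between the lines for 30 of the 64, 26 above 0 and 4 below, where 22.9% of all genes were above and 14.3% below. With low genes filtered out, 28 were above 0 and 4 below, again out of fewer than 64 list genes. Of all genes kept, 35.2% were above and 19% below. In TTR cells the calls depended on the fit. In the paired fit of the 2 TTR groups alone, with the replicate block, 1 rose and 8 fell (1 more fall among the HSP70 and HSP110 genes, 1 among the cofactors, 1 rise and 1 fall among the J-domain genes and 2 falls among the CCT subunits), where 6.09% of all genes were higher and 8.41% lower. Without the parental TRAIL arrays 1 rose and 6 fell, where 3.98% of all genes were higher and 5.3% lower. After median centring 0 rose and 9 fell in TTR cells, with 2.43% of all genes higher and 10.6% lower. With array weights 2 rose and 10 fell, with 7.72% higher and 9.65% lower. Leaving out parental TRAIL array 2 gave 1 rise and 5 falls, with 3.71% of all genes higher and 4.36% lower. Leaving out TTR untreated array 2 gave 0 and 2, with 1.79% and 0.652%. Leaving out TTR untreated array 3 or TTR TRAIL array 1 or 2 gave 0 and 1. The shares were then 2.24% and 0.7%, 2.03% and 0.733%, and 1.59% and 0.467%, in that order. Without TTR TRAIL array 3, 1 rose and 1 fell, with 2.56% of all genes higher and 1.21% lower. The 8 CCT subunits form the chaperonin that folds actin and tubulin. Of these 0 were called in TTR cells (median −0.17, against −0.01 over all genes), 2 of them in the paired fit, while in parental cells 7 fell and 1 did not pass (median −1.12, against 0.05). CCT4 fell 3.48-fold in parental cells (−1.80 ± 0.15, limma adjusted p = 2.10e-08), CCT7 by 1.28 and CCT2 by 1.13 on the log2 scale. The 1 that did not pass, CCT8, stood at 0.28 (adjusted p = 0.0878). The difference between the lines passed for 7 of the 8, all above 0, where 22.9% of all genes were above 0. In parental cells 29.9% of all genes fell, and 7 of the 8 subunits also fell after median centring (46.7% of all genes) and after quantile normalization (31.4%). Of the genes kept by the filter on low genes, 43.7% fell (median −0.12) and 35.2% had a difference above 0.

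Of the 10 measured genes of HSP90AB1 and the HSP90 co-chaperones, 0 were called in TTR cells (median −0.05), and 1 rose and 6 fell in parental cells (median −0.43, against 0.05 over all genes), where 28.9% of all genes were higher and 29.9% lower. PTGES3, the co-chaperone p23 that holds HSP90 with its client, fell 4.68-fold in parental cells (−2.22 ± 0.13, limma adjusted p = 6.97e-10) and stood at −0.22 in TTR cells (adjusted p = 0.375). FKBP4 (−0.64 ± 0.13), an immunophilin of steroid receptor complexes, and STIP1 (−0.59 ± 0.12), which links HSP70 to HSP90, also fell in parental cells. CDC37, which loads kinases onto HSP90, was the 1 that rose (0.44 ± 0.10) and was named after its value was seen. HSP90AB1 itself, the constitutive HSP90, was at 0.14 in TTR cells and 0.11 in parental cells, neither called. After median centring 0 rose and 8 fell in parental cells, where 46.7% of all genes fell, and after quantile normalization 1 rose and 4 fell, where 31.4% fell. Of the genes kept by the filter on low genes, 43.7% fell in parental cells, with a median of −0.12.

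Of 6 other cytosolic HSP70 and HSP110 genes, 0 were called in TTR cells (median −0.13), and 1 rose and 3 fell in parental cells (median −0.26). Over all genes 3.27% were higher and 2.55% lower in TTR cells. In parental cells these shares were 28.9% and 29.9%, or 12.6% and 46.7% after median centring, and 32.4% and 43.7% without low genes. HSPA4, an HSP110 of the same family as HSPH1, fell 3.27-fold there (−1.71 ± 0.11, limma adjusted p = 1.17e-09), and HSPA4L, another, fell 2.54-fold (−1.35 ± 0.12). In TTR cells HSPA4 stood at −0.31 (adjusted p = 0.106) and was the HSP110 gene called lower in the paired fit (adjusted p = 0.0349). HSPA14, an HSP70 of the ribosome, fell by 0.56 ± 0.12. Among 7 cofactors of HSP70, 0 were called in TTR cells (median 0.01), and 3 rose and 2 fell in parental cells (median 0.01), but after median centring 0 rose and 3 fell. The nucleotide exchange factors BAG4 (−0.81 ± 0.13) and BAG2 (−0.63 ± 0.16) were lower and BAG5 (0.40 ± 0.12) higher.

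Of 10 other cytosolic J-domain genes, 0 were called in TTR cells (median 0.11). In parental cells 4 rose and 3 fell (median 0.15), or 2 and 3 after median centring. For these and the small heat shock genes below, 3.27% of all genes were higher and 2.55% lower in TTR cells. The parental shares were 28.9% and 29.9% as deposited, or 32.4% and 43.7% without low genes. Centring changed the deposited parental shares to 12.6% and 46.7%, and quantile normalization changed them to 19.1% and 31.4%. DNAJA2, a partner of HSP70, fell 3.74-fold in parental cells (−1.90 ± 0.13, limma adjusted p = 2.09e-09) and DNAJB6, which holds back aggregation, 2.43-fold (−1.28 ± 0.11). DNAJB4, a close relative of DNAJB1, rose by 0.66 ± 0.09 there and stood at 0.27 in TTR cells (adjusted p = 0.0896). DNAJB4 was also higher in TTR than in parental cells without TRAIL (0.68 ± 0.09, adjusted p = 1.50e-04). In that comparison 1 of the 10 genes was called higher and 1 lower, and the lowest change was −0.53. Over the 64 list genes 2 were higher and 3 lower, where 3.64% of all genes were higher and 3.47% lower. Of 6 other small heat shock genes, 0 were called in TTR cells (median −0.01), and 2 rose in parental cells (median 0.23), HSPB6 (0.45 ± 0.11) and HSPB8 (0.42 ± 0.15), with 0 called after median centring or after quantile normalization. HSPB8 had overlapping parental groups and lay near the lower quartile of the arrays, at means of 2.85 untreated and 3.27 with TRAIL.

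Of the 3 measured genes among the other heat shock factors and HSBP1, 0 rose and 1 fell in TTR cells (median 0.11), and 2 rose and 1 fell in parental cells (median 0.31). For this list and the next, 3.27% of all genes were higher and 2.55% lower in TTR cells, and 28.9% and 29.9% in parental cells. HSBP1, a small protein that binds HSF1 and restrains it, fell in both lines, by 0.47 ± 0.12 in TTR cells (limma adjusted p = 0.0314) and by 1.20 ± 0.12 in parental cells (adjusted p = 1.99e-07). The TTR call was lost without any 1 of 5 of the 6 TTR arrays, TTR untreated arrays 2 and 3 and TTR TRAIL arrays 1, 2 and 3, and after quantile normalization. HSF4 (0.81 ± 0.15) and HSF5 (0.31 ± 0.11) rose in parental cells as deposited, and after either scaling 1 of the list rose and 1 fell. HSF5 lay near the lower quartile of the arrays, at means of 2.63 untreated and 2.95 with TRAIL in parental cells, and no detection call was used. Of 14 chaperones of the endoplasmic reticulum and mitochondria, 0 rose and 2 fell in TTR cells (median −0.03), and 2 rose and 9 fell in parental cells (median −0.63), or 0 and 12 after median centring. After that centring 12.6% of all genes were higher and 46.7% lower. As deposited but without low genes, 32.4% were higher and 43.7% lower in parental cells. The 2 in TTR cells were HSPA13, an HSP70 of the endoplasmic reticulum, at −0.57 ± 0.13 (limma adjusted p = 0.0163), and DNAJC3, an inhibitor of stress kinases there, at −0.44 ± 0.09 (adjusted p = 0.013). At most 1 of these 2 calls was kept without TTR untreated array 3 or TTR TRAIL array 1, 2 or 3, where 1 gene fell over all lists. In parental cells HSPA13 fell 5.50-fold (−2.46 ± 0.13), DNAJC3 4.30-fold (−2.10 ± 0.09) and HSPD1, the mitochondrial chaperonin, 2.41-fold (−1.27 ± 0.12).

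**Figure D4:**
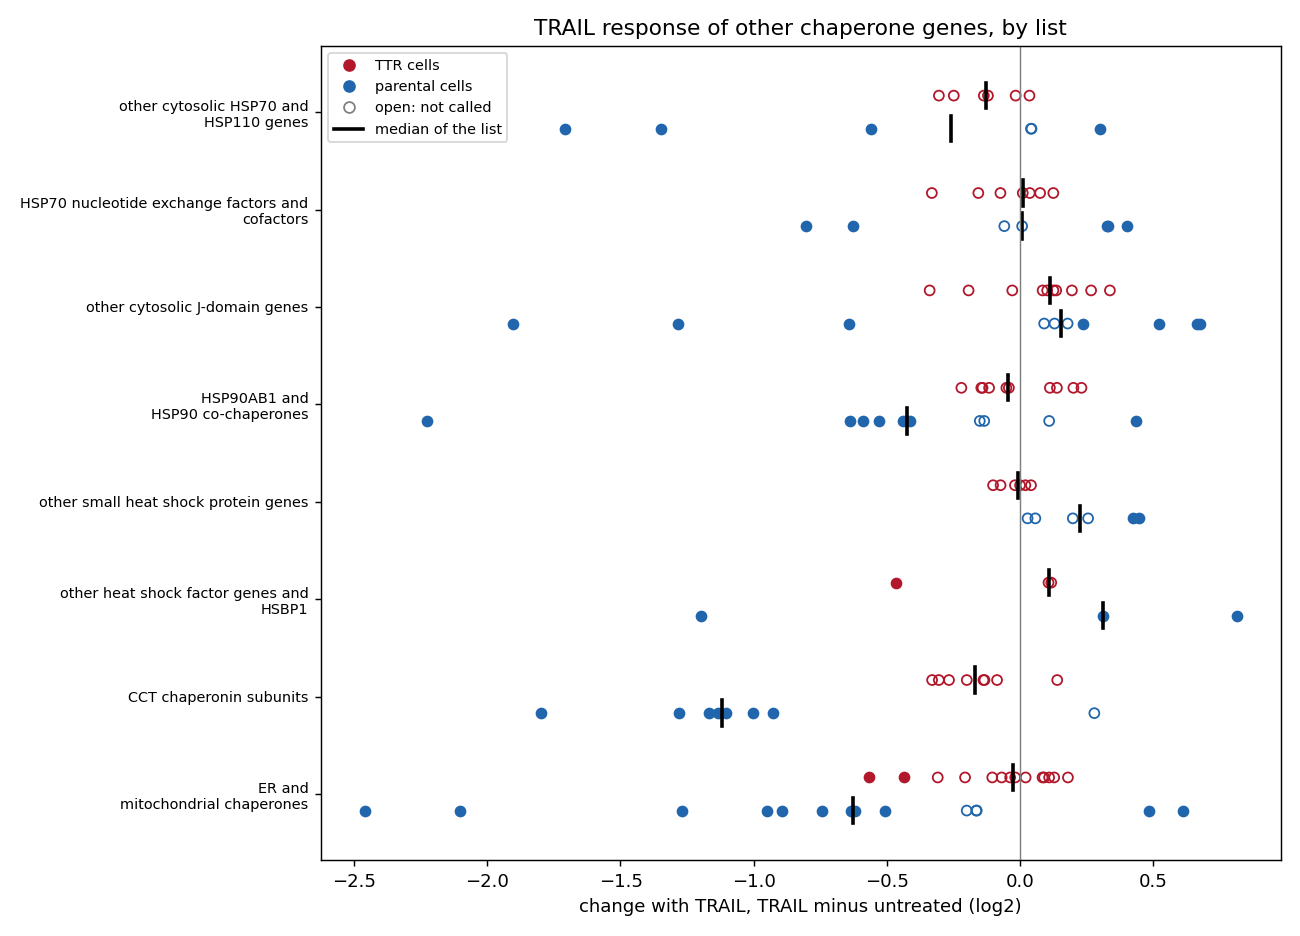
Change with TRAIL (TRAIL minus untreated, log2) of the 64 measured genes of 8 chaperone lists, TTR cells above parental cells, filled where called and open where not, with a black bar at the median of the list. The CCT subunits have a median of −0.17 in TTR cells and −1.12 in parental cells.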

How the data were processed

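The authors deposited log2 values made with RMA in Affymetrix Power Tools, per the submitters' processing notes. RMA usually corrects background, brings arrays to one distribution and summarises probes per feature. The deposited feature values were not on one distribution, with array medians from 4.24 to 4.61. Software versions and settings and the genome build: not given in the sources used here. Values are relative within an array, so a change in total RNA is not seen. No detection call was used.

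Of 33252 features, 19460 named 1 gene in the platform annotation, 1754 several and 12038 none. The feature with the highest mean was kept for each gene. All 12 arrays entered 1 limma fit (version 3.58.1, under R 4.3.3, by lmFit then eBayes) with a mean for each group and without a block (8 residual and 7.87 prior degrees of freedom), two-sided, with Benjamini-Hochberg adjustment over 18417 genes and no filter on low values. The fit was also run on simulated data with independent noise and no array shift or batch, so that run does not test the fit under either. An exact test of 3 against 3 arrays cannot go below 0.1 and was not used. No 2 arrays held identical values (0 pairs). Deviations of same-numbered arrays correlated at 0.15 to 0.40 over the 3 pairs of TTR groups, so their numbers were taken to pair them. The other group pairs had at least 1 correlation under 0.1.

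The members and lists were chosen with earlier results of these data known. Named genes were the members, up to 3 called genes with the smallest p in parental cells from each list, and the genes most like HSPA2 (5) and DNAJB1 (3). CDC37, CCT8 and HSP90AB1 were named outside this rule, after their values were seen. Promoter sequences are RefSeq's, build GRCh38.p14. HSF1 sequence was not used here. Python 3.11.15 with matplotlib 3.10.9 made the figures. Alternatives were scaling, feature choice, a filter, the groups fitted, array weights, the replicate block and leaving out each array.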

Additional observations from a re-analysis of the deposited data

Results flagged for a closer look

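The TRAIL effect differed between the lines by its own test, TTR minus parental on the log2 scale, for 4 members: DNAJB1 at −0.97, HSPH1 at 0.81, HSPB1 at 0.63 and HSF1 at −0.47. Over all 64 measured list genes it passed for 30, 26 above 0 and 4 below, where 37.2% of all genes passed. With low genes filtered out, which left fewer than 64 list genes, 28 were above 0 and 4 below. Of all genes then kept, 35.2% were above 0 and 19% below. The list genes below were named for small p-values in parental cells, whose arrays this test shares, so their number passing is no separate result. Among them, HSPA4 (1.40), HSPA4L (1.21), DNAJA2 (1.56), DNAJB6 (1.09), PTGES3 (2.00), STIP1 (0.55), FKBP4 (0.49), HSBP1 (0.73), CCT4 (1.47), CCT7 (1.01), CCT2 (0.83), DNAJC3 (1.67), HSPA13 (1.89) and HSPD1 (1.06) had fallen in parental cells. DNAJB4 (−0.40), HSPB6 (−0.43) and HSF4 (−0.70) had risen there.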

How the results depend on the processing

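Of 102 recomputed counts of called members, 91 stayed within 1.5 times the reported one. Leaving out 1 array at a time gave 0 to 1 called genes for TRAIL in TTR cells, 0 to 1 for untreated TTR against parental cells, 5 to 7 for TRAIL in parental cells, 6 with any array left out for TRAIL-treated TTR against parental cells, and 3 to 4 for the difference between the TRAIL effects. Over all genes these fits called 1.59% to 4.1% higher and 0.467% to 4.36% lower for TRAIL in TTR cells. For TRAIL in parental cells the shares were 25% to 29.1% higher and 28.3% to 30.2% lower. They were 2.19% to 4.45% and 2.05% to 3.99% untreated, and 26.1% to 28.5% and 21.6% to 26.6% with TRAIL. For the difference they were 21.1% to 23.1% above 0 and 11.5% to 14.8% below. For untreated TTR against parental cells the count was 0 over every feature and 0 with only the 2 groups in the fit. Of all features 1.49% were then higher and 1.57% lower, and with only the 2 groups 3.45% and 3.17% of all genes. Of 709 recomputed values of single members other than HSPA2, 12 changed sign, 14 gained and 27 lost a call. None of the 12 was called either way. They were HSP90AA1 with TRAIL in TTR cells after median centring (−0.10), with array weights (−0.0184) and over left-out arrays (−0.0767 to 0.0554), and HSPH1 there over left-out arrays (−0.207 to 0.0791). The others were HSPA8 in untreated TTR against parental cells after median centring (0.0175), after quantile normalization (0.0122) and over left-out arrays (−0.0319 to 0.032), and HSF1 there over left-out arrays (−0.187 to 0.0597). HSPA2 kept its sign in all 102 recomputed values, between 3.94 and 4.35 for TRAIL in parental cells and 0.58 and 0.78 in TTR cells. HSPA2 was selected on these same arrays, so this is a description and no separate support. The 102 include the untreated difference between the lines (0.05 to 0.21), whose groups overlapped. Of the 102, 2 moved by at least the largest SD of the groups in their comparison. Of 816 recomputed list counts, 122 moved by over 1.5 times. With the replicate block the counts of called members were 7 for TRAIL in parental cells, 1 in TTR cells, 1 untreated, 6 with TRAIL and 4 for the difference. Of all genes 30% were then higher and 30.5% lower for TRAIL in parental cells, and 4.4% and 4.11% in TTR cells. These shares were 4.68% and 4.4% untreated, 29% and 27.4% with TRAIL, and 24% and 15.5% for the difference. In the paired fit of the 2 TTR groups alone, added after the data were seen, 1 was called, and 1 in a fit without parental TRAIL arrays, also added. For TRAIL in TTR cells 6.09% of all genes were higher and 8.41% lower in the paired fit. Without the parental TRAIL arrays these shares were 3.98% and 5.3%. The block changed no call of a member except HSP90AA1 for TRAIL in parental cells (adjusted p = 0.0475). HSPA6 was not tested once low genes were filtered out. Where a call changed, the cause was not tested. The lack of a detection call limits HSPA6, HSPB8 and HSF5, whose untreated values lay near or below the lower quartile of the arrays.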
